A study of Mus musculus with 9 samples.

Results

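The replication-dependent histone genes of the mouse were followed across populations of Comma-1D cells, an established mouse mammary epithelial line, with and without a transduced oncogene. The genes were taken by name: a gene entered when its Ensembl identifier carried a protein-coding symbol beginning Hist1h, Hist2h, Hist3h or Hist4h. Of 54281 genes in the files, 67 did, and 3 pseudogenes with such names were left out. They comprised 6 linker histone H1 genes, 18 H2A genes, 18 H2B genes, 12 H3 genes and 13 H4 genes. On GRCm38, 54 of them lay in the Hist1 cluster (chr13:21715763-23934851), 10 in Hist2 (chr3:96219865-96270132), 2 in Hist3 (chr11:58948920-58956830) and 1, Hist4h4, on its own (chr6:136801553-136804415). A total of 63 passed the filter on low counts; Hist1h2aa, Hist1h2ba, Hist2h3c1 and Hist1h4m did not.

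Bulk RNA was sequenced from 3 populations that differ in 2 surface proteins, Sca-1 and EpCAM. The population named B was high for Sca-1 and low for EpCAM, the one named L was the reverse, and the one named bi was high for both. Each was sampled as a control and after transduction with MYC or with Her2, each described as an activated oncogene, which gave 9 libraries, 1 per population and arm. All cells grew in the same medium with fetal calf serum, EGF, insulin and gentamicin. The labels do not say whether the control arm received a vector, what promoter drove the transgenes, or whether the libraries came from separate cultures. P-values therefore measure only the spread between these libraries that is left by an additive model of population and arm. That spread holds the interaction of population and arm, and the rest of it may be technical. Each oncogene comparison is an average over the 3 populations, and each population comparison an average over the 3 arms.

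Replication-dependent histone genes supply the core histones H2A, H2B, H3 and H4 and the linker histone H1 that package newly copied DNA, and their messengers accumulate in S phase and are destroyed when DNA synthesis stops. They have no introns, and their messengers end in a conserved stem-loop instead of a poly(A) tail. The stem-loop is bound by SLBP, which is needed for cleavage by the U7 snRNP, translation and decay, while NPAT, a target of cyclin E-CDK2, gathers at the histone clusters and drives their transcription. Replication-independent variants such as H3.3 and H2A.Z are made from ordinary polyadenylated messengers throughout the cycle. In dividing epithelial cells, histone messengers serve as a marker of S phase.

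The stem-loops are shown because they are the feature that sets these messengers apart from polyadenylated RNA. The search looked, downstream of the stop codon of each GENCODE M21 transcript model (GRCm38), for a 6-base stem beginning GG, a 4-base loop beginning TT, and the exact reverse complement of the stem. Capitals mark the stem, and T stands for the U of the RNA.
Hist1h1e (chr13:23621777-23621802, minus strand): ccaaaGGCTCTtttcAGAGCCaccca
Hist2h2ac (chr3:96220413-96220438, minus strand): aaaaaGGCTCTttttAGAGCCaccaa
Hist3h2ba (chr11:58949344-58949369, plus strand): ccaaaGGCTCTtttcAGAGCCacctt
Hist1h2bm (chr13:21722501-21722526, plus strand): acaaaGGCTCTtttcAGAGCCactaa
Hist1h3a (chr13:23761885-23761910, minus strand): ccaaaGGCTCTtttcAGAGCCacaca
Hist1h4n (chr13:21831793-21831818, minus strand): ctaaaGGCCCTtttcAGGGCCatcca
Hist1h4j (chr13:21735432-21735457, plus strand): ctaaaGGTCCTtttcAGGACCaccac
Hist4h4 (chr6:136803993-136804018, minus strand): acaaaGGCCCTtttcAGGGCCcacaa
Such a stem-loop was found in 44 of the 67 genes, between 21 and 58 bases after the stop codon, with a median of 31.0 bases. The matches in 4 H1, 11 H2A, 10 H2B and 8 H3 genes all had the same stem, GGCTCT on its 5′ arm. The matches in H4 genes never had it: 9 carried GGCCCT and 2 carried GGTCCT. Among 21834 other protein-coding genes, 86 (0.394%) held the pattern anywhere in a transcript. Of the 23 histone genes without a match, 15 have models that end within 20 bases of the stop codon, short of every distance found above. The other 8 have a model that runs on further; Hist2h2be, an H2B gene known as a variant of olfactory sensory neurons, runs on for 2192 bases with no match.

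Many copies are nearly the same sequence. The 13 H4 genes encode 1 protein and the 12 H3 genes encode 2, while the 18 H2A and 18 H2B genes encode 9 and 11 distinct proteins and the 6 H1 genes encode 6. The coding bases are identical within the pairs Hist1h2ao and Hist1h2ap, Hist1h2bq and Hist1h2br, Hist1h4m and Hist1h4n, Hist2h2aa1 and Hist2h2aa2, and Hist2h3c1 and Hist2h3c2. Reads from such copies are divided by the quantifier, so values of single members are uncertain and sums over a histone type less so. Hist2h3c1 received 0 reads in every library and Hist1h4m at most 13, while their partners Hist2h3c2 and Hist1h4n received up to 34851 and 38092 reads.

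Library totals ran from 46915001 to 98873864 reads, and 3 reads correspond to between 0.0320 and 0.0686 CPM (read counts divided by library size, with TMM scaling factors of 0.903 to 1.14). The libraries were made by ribosomal depletion per the protocol, although the molecule label reads polyA RNA, and rRNA loci took 9.71% to 16.1% of reads. Myc was higher in the MYC library, and Erbb2, which encodes Her2, in the Her2 library, than in the other arms of the same population. The keratins Krt5 and Krt14 of basal mammary cells were at 569 to 2312 CPM and 587 to 2422 CPM, and Epcam was at 0.183 to 0.764 CPM in the 3 B libraries and at 252 to 610 CPM in the other 6. Ly6a, which encodes Sca-1, was at 57.8, 112 and 19.5 CPM in the B control, MYC and Her2 libraries. It was at 6.53, 12.8 and 2.37 CPM in L and at 18.4, 139 and 15.9 CPM in bi. The keratins Krt8 and Krt18 of luminal mammary cells were lowest in B, at up to 0.0888 and 4.27 CPM. In L they were at 5.89 to 31.0 CPM and 133 to 850 CPM, and in bi at 0.533 to 3.31 CPM and 46.5 to 80.6 CPM. The summed level of 5 stromal markers (Col1a1, Col1a2, Pdgfra, Pdgfrb and Dcn) was 84.4 to 148 CPM in B, 18.0 to 18.6 CPM in L and 22.5 to 38.0 CPM in bi. The sum was thus highest in B, but only Pdgfra and Pdgfrb were higher in every B library than in all L and bi libraries. Col1a1 was at 2.38 CPM in B Her2 and 11.8 CPM in bi control, and Col1a2 at 0.153 and 0.405 CPM. Dcn was at 1.23 CPM in B control and 2.42 CPM in bi Her2. Only Col1a2 had a library at 0, in L. The part of these markers in the population differences described below was not tested. In bulk RNA, fewer cells of a type and less RNA per cell cannot be told apart.

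The summed level of all 67 histone genes was highest in the control library of each population. In B it was 4952 CPM in the control, 2612 CPM with MYC and 1499 CPM with Her2. In L it was 8023 CPM, 4347 CPM and 6438 CPM, and in bi 10124 CPM, 3928 CPM and 6939 CPM in the same order. The lowest library was B Her2 and the highest bi control. The 3 MYC libraries lay below all 3 controls, whereas L Her2 and bi Her2 lay above the B control. The shares of the 5 histone types varied far less than the sum, as the stacked bars show: H4 made up 26.1% to 32.3% of histone reads, H2B 17.1% to 22.1%, H1 15.9% to 21.9%, H2A 15.8% to 19.8% and H3 12.9% to 17.2%, with a 95% Wilson interval of at most 0.328 percentage points either side. By position, the Hist1 cluster gave 78.9% to 81.9% of histone reads, Hist2 12.6% to 16.8%, Hist3 1.45% to 2.32% and Hist4h4 alone 1.90% to 4.24%. These intervals and read floors cover counting error only.

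**Figure D1:**
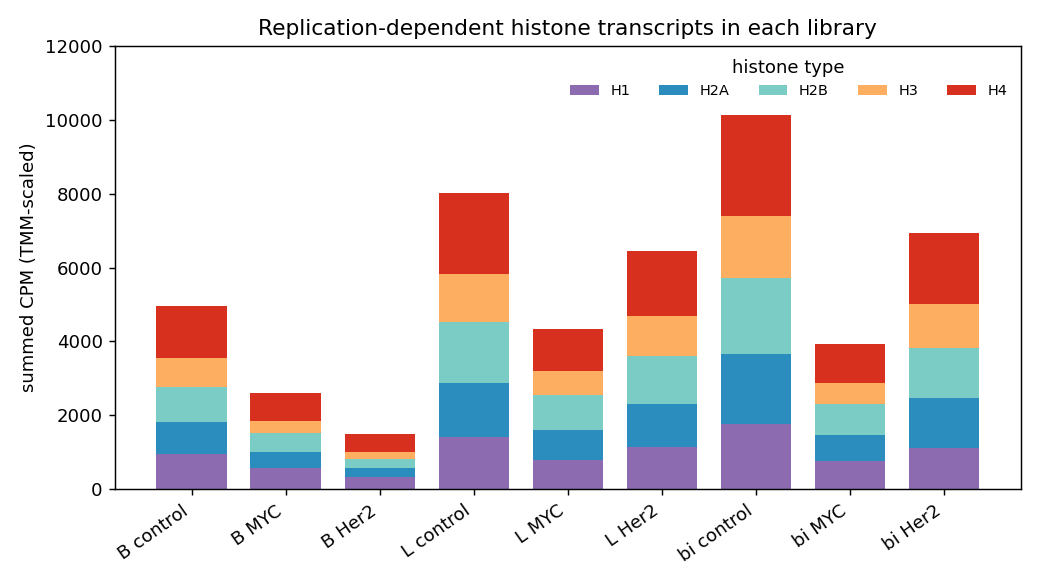
Summed CPM (TMM-scaled, vertical axis) of the replication-dependent histone genes in each of the 9 libraries (horizontal axis), stacked by histone type. The control library is the tallest bar of each population, and B Her2, at 1499 CPM, is the lowest of all.

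Levels between genes were compared per length, as the deposited TPM, with the SD over the 9 libraries. TPM divides by the deposited length, so the order depends on the transcript models too. That length was 7425 bases for Hist1h1d and 312 for Hist1h4k. By mean CPM the first genes differed: Hist1h1e (254 CPM) and Hist1h1d (241 CPM, but 30.8 TPM) led H1, Hist1h2bg (187 CPM) H2B and Hist1h4d (269 CPM) H4. In TPM the H4 genes led: Hist1h4n had a mean of 862 TPM (SD 463, n = 9 libraries) and Hist1h4k 847 TPM (SD 491), although Hist1h4n may hold reads of its copy Hist1h4m. Among H2B genes the highest were Hist2h2bb at 616 TPM (SD 323) and Hist1h2bk at 523 TPM (SD 308). Among H3 genes Hist1h3i reached 425 TPM (SD 236) and Hist2h3b 367 TPM (SD 225), and among H2A genes Hist1h2ap 407 TPM (SD 246) and Hist1h2ak 357 TPM (SD 218). Linker histone genes were led by Hist1h1b, which encodes H1.5, at 301 TPM (SD 161) and Hist1h1a, which encodes H1.1, at 225 TPM (SD 140). Differences between the mean TPM of the genes within a pair were smaller than the SD of either over the libraries. That SD holds the differences between populations and arms, so it does not measure the difference within a pair. Hist1h1b, for example, was above Hist1h1a in TPM in every library. The testis H1 gene Hist1h1t had a mean of 0.197 TPM, and the testis genes Hist1h2aa and Hist1h2ba reached at most 8 and 7 reads in a library. The deposited length was the same in all 9 libraries for 63 genes and varied for Hist1h2be, Hist1h2bp, Hist1h2bq and Hist1h2br, which all have more than 1 transcript model. Outside Hist1, 8 further genes had a mean above 10 CPM. Per length, Hist2h2aa1 was at 349 TPM (SD 193), Hist2h3c2 at 222 TPM (SD 139), Hist2h2aa2 at 188 TPM (SD 90.0) and Hist2h2ac at 188 TPM (SD 116). Hist4h4 was at 65.4 TPM (SD 36.0), Hist2h4 at 51.8 TPM (SD 28.7), Hist3h2a at 41.6 TPM (SD 19.9) and Hist3h2ba at 22.6 TPM (SD 15.1). In CPM all 8 were lowest in the B control and highest in the bi control, the order of the summed levels. In TPM the same held except for Hist3h2ba, at 44.1 TPM in the L control and 42.8 TPM in the bi control.

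With MYC, histone transcripts were lower than in the controls across all 5 types, but no single gene passed the adjusted threshold. In B the MYC sum was 0.528 times the control sum, in L 0.542 times and in bi 0.388 times, where each ratio compares a single library with another. The fitted log2 fold change was negative for 60 of the 63 tested genes, with a median of -1.09 beside 0.03 over all 23834 genes tested. By edgeR's quasi-likelihood test 0 of 63 had an adjusted p (Benjamini-Hochberg) under 0.05, which is the threshold for a called gene throughout, where 0.264% of all genes were called lower, and 60 of 63 were lower at an unadjusted p under 0.05, where 7.31% of all genes were. Groups of 3 libraries did not overlap, MYC below control, for 45 of 63 genes beside 7.02% of all genes, and the single gene with MYC above control was Hist1h1t. By type, the unadjusted count was 5 of 6 H1, 16 of 17 H2A, 16 of 17 H2B, 11 of 11 H3 and 12 of 12 H4 genes. The median log2 fold change ran from -0.92 in H1 to -1.25 in H3.

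The number called in this comparison changed with the method and with the libraries kept, among them B Her2, of the arm that is not in it. Without B Her2 the same edgeR fit called 50 of 64 tested histone genes lower with MYC, with 1.98% of all genes called in either direction, and the median stayed at -1.09. DESeq2 on all 9 libraries called 45 of 63 lower, with 5.15% of all genes called. B Her2 enters the fit through the shared residual and the population term. Why the number changed was not tested.

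The 3 histone genes with the smallest p in this comparison were Hist1h3a, Hist1h4a and Hist1h1a. Hist1h3a, an H3.1 gene (chr13:23761853-23762386), was at 26.6, 44.5 and 56.6 CPM in the B, L and bi controls and at 10.1, 24.7 and 19.8 CPM in the MYC libraries. Every MYC library was below every control, and the log2 fold change was -1.27 (SE 0.23, edgeR adjusted p = 0.0542). Hist1h4a, an H4 gene (chr13:23760692-23761230), was at 103, 164 and 191 CPM in the controls and at 59.3, 90.6 and 80.0 CPM with MYC. Its groups did not overlap either, with a log2 fold change of -0.96 (SE 0.19, edgeR adjusted p = 0.0599). Hist1h1a (chr13:23763666-23764406) was at 110, 234 and 268 CPM in the controls and at 36.3, 120 and 101 CPM with MYC. The L MYC library overlapped the B control, and the log2 fold change was -1.35 (SE 0.29, edgeR adjusted p = 0.0772).

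The 3 genes with a positive estimate with MYC had the lowest mean CPM of the 63 tested. Hist2h2be (chr3:96221119-96223738) was at 0.959, 1.33 and 1.66 CPM in the B, L and bi controls and at 1.10, 3.17 and 2.19 CPM with MYC. It was higher with MYC in each population, with a log2 fold change of 0.66 (SE 0.34) that did not pass the test (edgeR adjusted p = 0.434). Hist1h2ao reached at most 132 reads in a library and shares its coding bases with Hist1h2ap, and its estimate was 0.41 (SE 0.70). Hist1h1t reached at most 25 reads, with an estimate of 0.55 (SE 0.64). Among the other 60 genes the estimate closest to 0 was that of Hist1h1c, which encodes H1.2, at -0.59 (SE 0.26, edgeR adjusted p = 0.354). Hist1h1c, Hist1h2ao and Hist1h1t were named after their values were seen.

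With Her2, histone transcripts were lower than in the controls in each population, by very different amounts. In B the Her2 sum was 0.303 times the control sum, in L 0.802 times and in bi 0.685 times. The estimate was negative for 62 of 63 tested genes, with a median log2 fold change of -0.81. EdgeR called 0 of 63, where 0.00839% of all genes were called lower, and 55 of 63 were lower at an unadjusted p under 0.05, beside 4.75% of all genes. Groups did not overlap for 2 of 63 genes, beside 3.54% of all genes, since L Her2 and bi Her2 lay within the range of the controls. DESeq2 called 10 of 63 lower, with 2.53% of all genes called. Without B Her2 the median was -0.39 and the unadjusted count 21 of 64. Without bi Her2, edgeR called 1 histone gene lower, with 0.374% of all genes called.

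Hist3h2ba, an H2B gene of the Hist3 cluster (chr11:58948920-58949533), had the smallest p against control. It was at 3.98, 19.0 and 19.8 CPM in the B, L and bi controls and at 1.28, 11.8 and 10.5 CPM with Her2. The Her2 library was lower in each population, but the groups overlapped because B was low in both arms, and the log2 fold change was -1.05 (SE 0.23, edgeR adjusted p = 0.131). Hist1h1a, at 22.4, 163 and 133 CPM with Her2, gave -1.25 (SE 0.29, edgeR adjusted p = 0.159), and Hist1h4a, at 51.9, 109 and 124 CPM, gave -0.73 (SE 0.18, edgeR adjusted p = 0.195). Hist4h4 differed from the type it belongs to in 1 library. It was at 286 CPM in the L control and 122 CPM in L Her2, a ratio of 0.427 where the summed H4 genes gave 0.800, and no replicate bears on that value. Both oncogene comparisons use the same 3 controls.

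MYC and Her2 compared with each other gave no called histone gene. The ratio of the MYC to the Her2 sum was 1.74 in B but 0.675 in L and 0.566 in bi, so that the average over populations was near 0, with a median log2 fold change of -0.18. EdgeR and DESeq2 each called 0 of 63. In edgeR 2.44% of all genes were called higher and 2.13% lower, and at an unadjusted p under 0.05 it found 0 histone genes in either direction, where 10.4% of all genes were higher and 8.73% lower. Without B Her2, 10 of 64 were called lower with MYC, with a median of -0.62. The share of all genes called in either direction was then 5.83%, beside 4.57% with that library kept. The smallest p belonged to Hist2h2ac, an H2A gene (chr3:96220361-96220880). It was at 27.1, 42.7 and 32.8 CPM in the B, L and bi MYC libraries and at 19.1, 78.5 and 95.3 CPM in the Her2 libraries, higher with MYC in B and lower in the other 2 populations. The log2 fold change was -0.67 (SE 0.33, edgeR adjusted p = 0.307). Hist2h2be gave 0.65 (SE 0.34, edgeR adjusted p = 0.349) and Hist1h4k -0.50 (SE 0.28, edgeR adjusted p = 0.375).

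Between populations, histone transcripts were higher in L and in bi than in B, with most genes past the threshold. The L sum was 1.62 times the B sum in the controls, 1.66 times with MYC and 4.29 times with Her2. EdgeR called 53 of 63 genes higher in L and 0 lower, where 11.5% of all genes were called higher, and the median log2 fold change was 1.20. Groups did not overlap, L above B, for 17 of 63 genes beside 17.2% of all genes. By type the called genes were 3 of 6 H1, 15 of 17 H2A, 16 of 17 H2B, 10 of 11 H3 and 9 of 12 H4. The count fell to 34 of 64 without B Her2, 28 of 64 without L MYC and 17 of 63 without L Her2. The share of all genes called in either direction was 20.8% with all 9 libraries, and 15%, 14.1% and 15.7% in these fits, in the same order. Without B Her2 the median was 0.81.

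The bi sum was 2.04 times the B sum in the controls, 1.504 times with MYC and 4.63 times with Her2. EdgeR called 50 of 63 genes higher in bi and 0 lower, where 7.88% of all genes were called higher, with a median log2 fold change of 1.28. Groups did not overlap for 9 of 63 genes, a share near the 14.5% of all genes. The called genes were 3 of 6 H1, 14 of 17 H2A, 13 of 17 H2B, 11 of 11 H3 and 9 of 12 H4. The count was 33 of 64 without B Her2, 22 of 63 without bi control and 16 of 63 without bi Her2. The share of all genes called in either direction was 13% with all 9 libraries, and 8.22%, 7.64% and 8.52% in these fits, in the same order. The median without B Her2 was 0.90. Both population comparisons share the 3 B libraries.

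**Figure D2:**
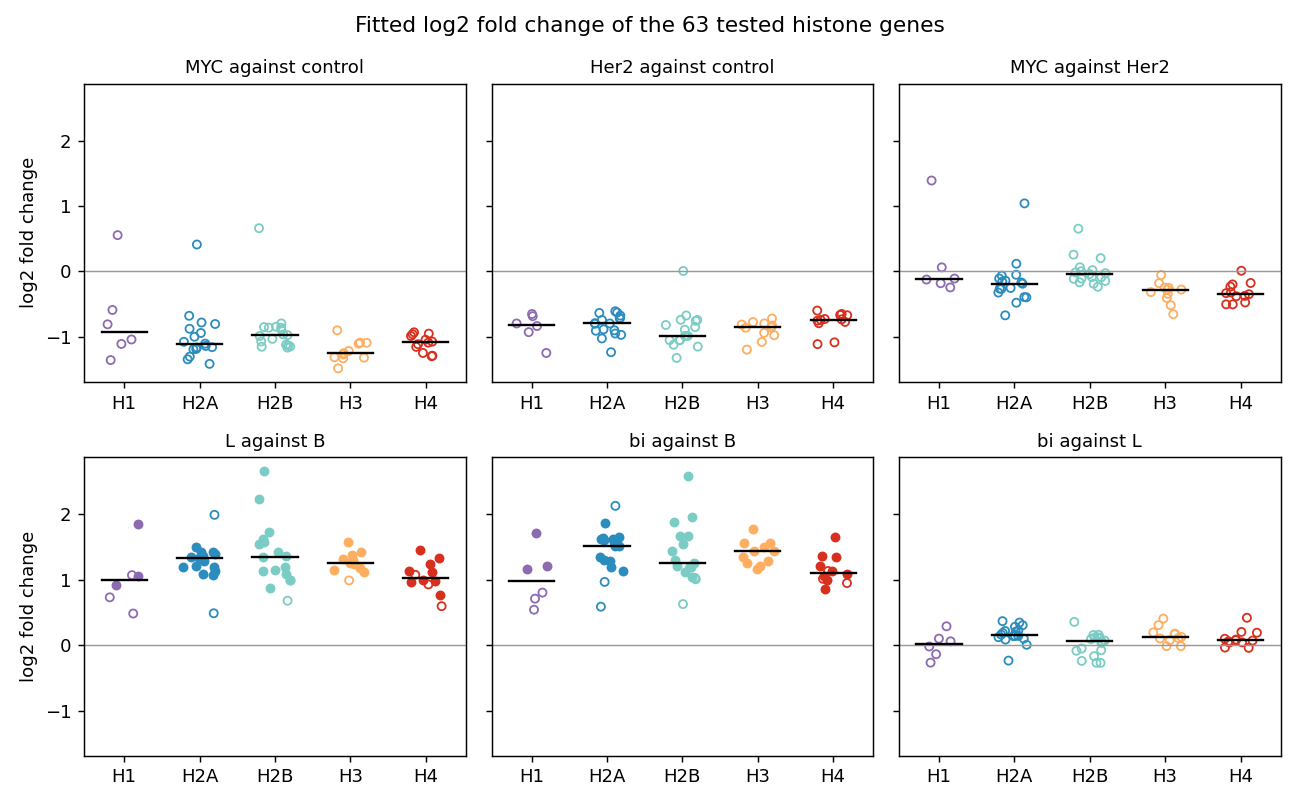
Fitted log2 fold change (vertical axis) of the 63 tested histone genes by histone type (horizontal axis) in 6 comparisons, filled where edgeR's adjusted p was under 0.05, with a line at the median of each type. Every gene lies above 0 in L against B and in bi against B, all but 3 lie below 0 in MYC against control, and no point is filled in the arm comparisons or in bi against L.

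Hist3h2ba differed most between populations. At 3.98, 2.06 and 1.28 CPM in the B control, MYC and Her2 libraries, it was below every L library (19.0, 12.3 and 11.8 CPM) and every bi library (19.8, 11.5 and 10.5 CPM). It rose 2.66 on the log2 scale in L against B (SE 0.24, edgeR adjusted p = 6.52e-05) and 2.58 in bi against B (SE 0.24, edgeR adjusted p = 0.000138). Hist3h2a, its neighbour in the Hist3 cluster, was at 67.8, 46.8 and 25.1 CPM in B and at 130, 87.7 and 90.7 CPM in L, and rose 1.20 (SE 0.24, edgeR adjusted p = 0.00663). Its groups did not overlap either, and its estimate equals the median of the histone genes.

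Hist1h2bp (chr13:21787461-21789213), another H2B gene, was next. It was at 11.3, 5.51 and 2.86 CPM in the B control, MYC and Her2 libraries, at 34.1, 22.3 and 25.9 CPM in L and at 37.5, 15.5 and 19.9 CPM in bi. No B library reached the lowest of the others. It rose 2.23 in L (SE 0.30, edgeR adjusted p = 0.000688) and 1.96 in bi (SE 0.30, edgeR adjusted p = 0.00245).

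Hist1h1a rose 1.86 in L against B (SE 0.30, edgeR adjusted p = 0.00194), from 110, 36.3 and 22.4 CPM in B to 234, 120 and 163 CPM in L, with no overlap. Hist1h2bh, an H2B gene (chr13:23541714-23543392), was at 50.9, 21.6 and 8.84 CPM in B, at 110, 58.1 and 70.4 CPM in L and at 126, 52.7 and 88.8 CPM in bi. It rose 1.73 (SE 0.37, edgeR adjusted p = 0.00881) in L and 1.88 (SE 0.37, edgeR adjusted p = 0.00977) in bi, again without overlap. Hist1h2bm, an H2B gene (chr13:21722044-21722567), was at 59.0, 24.9 and 13.0 CPM in B and at 115, 66.0 and 85.1 CPM in L, with no overlap, and rose 1.62 (SE 0.33, edgeR adjusted p = 0.00687). 

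In bi, the H2A gene Hist1h2ae (chr13:23570517-23571220) was at 90.8, 39.9 and 77.0 CPM in the control, MYC and Her2 libraries, where B had 41.0, 16.5 and 6.63 CPM. It rose 1.86 (SE 0.42, edgeR adjusted p = 0.0183). The H3 gene Hist1h3g (chr13:23535422-23535951) was at 85.7, 25.8 and 64.2 CPM in bi and at 35.5, 13.8 and 6.31 CPM in B, and rose 1.78 (SE 0.41, edgeR adjusted p = 0.0187). For both the bi MYC library was below the B control, so the groups overlapped, and without bi Her2 neither passed (edgeR adjusted p = 0.0589 and 0.0562).

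The threshold was missed by 10 genes in L against B and by 13 in bi against B, of which 8 missed it in both: Hist1h1c, Hist1h1e, Hist1h1t, Hist1h2ao, Hist2h2ab, Hist2h2be, Hist1h4i and Hist4h4. Of the H1 genes, Hist1h1c gave 0.48 in L (SE 0.26, edgeR adjusted p = 0.249) and 0.54 in bi (SE 0.26, edgeR adjusted p = 0.227). At 186, 151 and 78.9 CPM in the B control, MYC and Her2 libraries and 219, 140 and 205 CPM in L, it overlapped between the populations. Hist4h4 gave 0.60 in L (SE 0.30, edgeR adjusted p = 0.203) and 1.01 in bi (SE 0.30, edgeR adjusted p = 0.0574).

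No histone gene was called between bi and L. The bi sum was 1.26 times the L sum in the controls, 0.904 times with MYC and 1.08 times with Her2, and the median log2 fold change was 0.10. EdgeR and DESeq2 each called 0 of 63, where edgeR called 0.495% of all genes higher and 0.256% lower, and 0 were below an unadjusted p of 0.05, where 4.05% of all genes were higher and 4.6% lower. The smallest p belonged to Hist4h4 at 0.42 (SE 0.30, edgeR adjusted p = 0.901), Hist1h2bf at 0.36 (SE 0.27, edgeR adjusted p = 0.921) and Hist1h2af at 0.34 (SE 0.29, edgeR adjusted p = 0.953). A p that misses the threshold does not show that the populations were equal.

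The histone genes were set beside 50 DNA replication and G1/S genes, which are transcribed in the same part of the cycle but polyadenylated. For this list and those below, the shares of all genes were as follows. Called lower were 0.264% with MYC, 0.00839% with Her2 and 2.13% in MYC against Her2. Lower unadjusted were 7.31%, 4.75% and 8.73%, in the same order. Called higher were 11.5% in L and 7.88% in bi against B. In L against B 20.8% were called in either direction. With MYC, 13 of the 50 fell and 0 rose, 47 were lower at an unadjusted p under 0.05, and the median log2 fold change was -1.08, close to that of the histone genes. Cdc6, which loads the replicative helicase, was at 34.2 CPM on average in the controls and 10.0 with MYC, a log2 fold change of -1.75 (SE 0.23, edgeR adjusted p = 0.0230), and E2f8, an E2F-family repressor, fell from 67.9 to 20.9 CPM, a log2 fold change of -1.64 (SE 0.18, edgeR adjusted p = 0.0135). With Her2, 0 of the 50 were called, 3 were lower and 1 higher at an unadjusted p under 0.05, and the median was -0.13, where the histone median was -0.81. Against B, 19 of the 50 rose in L (median 0.52) and 16 in bi (median 0.56); the thymidine kinase gene Tk1 rose 1.21 in L (SE 0.17, edgeR adjusted p = 0.000997) and 1.43 in bi (SE 0.17, edgeR adjusted p = 0.000746). In MYC against Her2, 27 of the 50 were called lower and 49 were lower unadjusted, while no histone gene was called.

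The B Her2 library stood apart in the balance of histone to replication transcripts. The 50 replication genes summed to 2524, 1658 and 3114 CPM in the B control, MYC and Her2 libraries, so B Her2 was the highest of the 3, while its histone sum was the lowest. The histone sum divided by the replication sum was 0.481 in B Her2 and between 1.58 and 2.08 in the other 8 libraries. For G2/M and mitosis genes, 24 of which were listed, the sum in B Her2 was 1293 CPM against 2373 CPM in the B control, and the histone sum divided by it was 1.16, below the range of 1.62 to 2.28 in the other libraries. The rRNA share of this library was the lowest of the 9, at 9.71%, and its read total was within the range of the others. With 1 library this value has no test, and its cause was not tested.

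**Figure D3:**
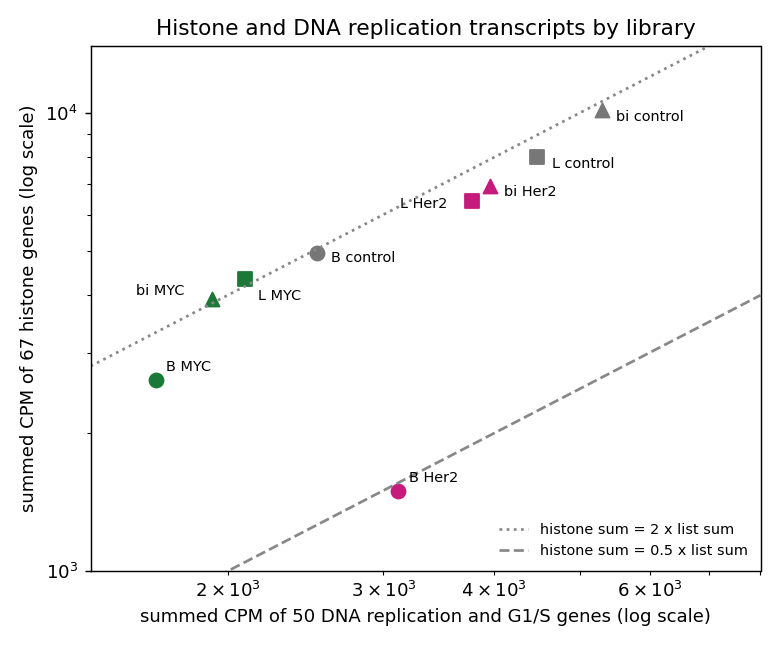
Summed CPM of the 67 histone genes (vertical axis, log scale) against that of 50 DNA replication and G1/S genes (horizontal axis, log scale), 1 point per library, with lines at ratios of 2 and 0.5. The 8 other libraries lie along the upper line at ratios of 1.58 to 2.08, and B Her2 lies on the lower line at 0.481.

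The mitosis list moved with the populations. In L against B 22 of the 24 genes rose (median 1.14) and in bi 19 (median 1.04). Ccna2, cyclin A2, rose 1.99 in L (SE 0.25, edgeR adjusted p = 0.000514) and 1.68 in bi (SE 0.25, edgeR adjusted p = 0.00231). With MYC 1 of the 24 was called, Ect2, a cytokinesis regulator, which fell by 1.20 on the log2 scale (SE 0.20, edgeR adjusted p = 0.0465). At an unadjusted p under 0.05, 21 of the 24 were lower with MYC, and the median was -0.86; with Her2 0 were called, 7 were lower at an unadjusted p under 0.05, and the median was -0.47. The proliferation marker Mki67 was at 506, 276 and 244 CPM in the B control, MYC and Her2 libraries, at 960, 560 and 894 CPM in L and at 927, 507 and 764 CPM in bi. All 6 L and bi libraries were above the B library of the same arm, and Mki67 rose 1.26 in L (SE 0.22, edgeR adjusted p = 0.00332) and 1.11 in bi (SE 0.22, edgeR adjusted p = 0.00996). Mki67 in B Her2 was thus low together with the histone genes, whereas the replication list was not.

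Among 27 genes for the transcription and 3′-end processing of histone messengers, 1 fell with MYC, 0 were called with Her2, and 1 rose in each of L and bi against B. Of all genes, 11.5% were called higher in L and 7.88% in bi, both larger shares than 1 of 27. At an unadjusted p under 0.05, 11 of the 27 were lower with MYC and 1 with Her2. In MYC against Her2, 3 of the 27 were called lower and 8 were lower unadjusted. The gene called with MYC against control, in L against B and in bi against B was Ccne1, cyclin E1, the partner of CDK2 upstream of NPAT. Ccne1 was at 7.69 CPM on average with MYC and 20.2 CPM in the controls (log2 fold change -1.34, SE 0.20, edgeR adjusted p = 0.0331). Against B it rose 0.70 in L (SE 0.20, edgeR adjusted p = 0.0323) and 0.86 in bi (SE 0.20, edgeR adjusted p = 0.0197). Slbp was at 55.1, 43.9 and 59.3 CPM in the B control, MYC and Her2 libraries, at 89.2, 48.1 and 75.01 CPM in L and at 94.5, 39.9 and 64.4 CPM in bi. It was lowest with MYC in each population, with a log2 fold change of -0.83 (SE 0.19, edgeR adjusted p = 0.0920), and in B Her2 it was not low. Npat ran only from 44.4 to 63.3 CPM over the 9 libraries, with log2 fold changes between -0.29 and 0.18 and no call.

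Among 22 histone chaperone and assembly genes, 3 fell with MYC: Hat1, the cytoplasmic H4 acetyltransferase, at -1.07 (SE 0.17, edgeR adjusted p = 0.0445), Chaf1a, the large subunit of the CAF-1 complex that deposits H3 and H4 at forks, at -1.07 (SE 0.18, edgeR adjusted p = 0.0466), and Nasp, a chaperone of soluble histones, at -1.02 (SE 0.17, edgeR adjusted p = 0.0466). With Her2 0 of the 22 were called. At an unadjusted p under 0.05, 11 of the 22 were lower with MYC and 1 with Her2, and in MYC against Her2 6 were called lower and 10 were lower unadjusted. In L 5 rose and 1 fell, and in bi 4 rose. Tonsl, which binds new histones at replication forks, rose 0.98 in L (SE 0.21, edgeR adjusted p = 0.00884) and 1.03 in bi (SE 0.21, edgeR adjusted p = 0.0108), and Daxx, a chaperone of the variant H3.3, fell by 0.85 on the log2 scale in L (SE 0.20, edgeR adjusted p = 0.0130).

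The 11 replication-independent variants did not move as a block. With MYC and with Her2 0 were called, and 3 were lower at an unadjusted p under 0.05 in each comparison, with medians of -0.12 and -0.31. In L against B 4 rose and 1 fell. H2afx, whose messenger can end in either a stem-loop or a poly(A) tail, rose 1.52 in L (SE 0.28, edgeR adjusted p = 0.00383) and 1.58 in bi (SE 0.28, edgeR adjusted p = 0.00548). The replacement linker histone gene H1f0 rose 1.02 in L (SE 0.23, edgeR adjusted p = 0.0110), and the H3.3 gene H3f3b rose 0.92 (SE 0.18, edgeR adjusted p = 0.00601). H1fx, another linker histone, fell by 1.81 on the log2 scale (SE 0.30, edgeR adjusted p = 0.00229). The sum of the 11 variants was 1484 CPM in B Her2, close to the 1581 CPM of the B control.

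Because the messengers lack a poly(A) tail and are short, other RNAs with those properties are given beside them, chosen after the data were seen. The non-polyadenylated RNAs Rn7sk, Rpph1 and Rn7s1 had a median log2 fold change of 0.46 with MYC, 0.14 with Her2, -0.18 in L and -0.36 in bi against B, with none called or below an unadjusted p of 0.05. In all 4 the sign of their median was opposite to that of the histone median. The single RNAs differed in sign with Her2, from -0.12 to 0.14, and in L against B, from -0.26 to 0.16. Their sum was 36946 CPM in B Her2 and 28797 CPM in the B control. The mean deposited length was under 700 bases for 43 of the histone genes. Over 7656 other tested protein-coding genes below that length, the median log2 fold change lay between -0.04 and 0.01 in all 6 comparisons. Whether the missing tail or the length has a part in the histone differences was not tested.

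Many histone genes lie head to head and share an upstream region. There were 13 such pairs with starts under 1000 bases apart, 12 of them an H2A with an H2B gene and 1 an H2B with an H3 gene, separated by 176 to 660 bases with a median of 268. Both partners were tested in 12 pairs, and in 10 of these both estimates with MYC were below 0. Because 60 of the 63 tested genes had a negative estimate with MYC, this count cannot show that partners move together. Hist1h2ak and Hist1h2bn gave -1.18 and -1.07 with MYC and 1.35 and 1.14 in L against B, and Hist1h2ah and Hist1h2bk gave -1.30 and -1.15, and 1.42 and 1.54. The other 2 pairs held the weakly expressed genes Hist2h2be and Hist1h2ao. Hist2h2ac and Hist2h2be were 239 bases apart, their means were 65.0 and 1.59 CPM, and their estimates with MYC were -1.41 and 0.66. Hist1h2bq and Hist1h2ao were at 101 and 0.909 CPM, with estimates of -0.85 and 0.41, and each has an identical coding copy elsewhere. In the pair of Hist1h2an and Hist1h2bp the L against B estimates were 1.37 and 2.23.

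RefSeq promoter windows (GRCm38.p6) were matched for 62 of the 67 genes, and the 250 bases before the start were searched on both strands for 4 motifs, none of which contains another. The pentamer CCAAT was found in 82.3% of the histone promoters and in 33.8% of 32851 promoters in all; it was present in all 6 H1, 18 H2A and 16 H2B windows, in 8 of 10 H3 windows and in 3 of 12 H4 windows. TATAAA was found in 46.8% against 12.4%. The octamer ATTTGCAT was found in 7 of 18 H2A and 6 of 16 H2B windows and in none of H1, H3 or H4, against 1.6% of all promoters. AAACACA, an element of H1 promoters, was found in 5 of 6 H1 windows and in 14.5% of all histone windows against 6.25% of all promoters. The windows printed here belong to genes named in the comparisons, 1 of each histone type, and show how differently the motifs are arranged, with capitals marking these 4 motifs on either strand.
Hist1h1a (chr13:23763418-23763667, plus strand): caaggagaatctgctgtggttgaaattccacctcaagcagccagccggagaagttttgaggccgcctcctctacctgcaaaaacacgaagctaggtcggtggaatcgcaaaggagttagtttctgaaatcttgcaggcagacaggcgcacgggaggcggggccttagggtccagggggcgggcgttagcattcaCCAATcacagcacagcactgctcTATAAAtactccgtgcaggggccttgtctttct
Hist2h2ac (chr3:96220881-96221130, minus strand): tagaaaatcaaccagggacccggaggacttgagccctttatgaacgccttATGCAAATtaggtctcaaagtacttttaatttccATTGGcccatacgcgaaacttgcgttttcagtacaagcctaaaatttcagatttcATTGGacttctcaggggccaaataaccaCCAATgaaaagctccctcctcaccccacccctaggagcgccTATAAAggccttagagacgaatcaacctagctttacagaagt
Hist1h2bp (chr13:21787238-21787487, plus strand): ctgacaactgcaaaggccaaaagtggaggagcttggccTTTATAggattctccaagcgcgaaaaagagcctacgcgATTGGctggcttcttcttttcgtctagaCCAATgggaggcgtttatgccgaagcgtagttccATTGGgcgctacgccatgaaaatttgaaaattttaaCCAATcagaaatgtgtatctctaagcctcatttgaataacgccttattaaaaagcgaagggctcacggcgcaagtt
Hist1h3g (chr13:23535168-23535417, plus strand): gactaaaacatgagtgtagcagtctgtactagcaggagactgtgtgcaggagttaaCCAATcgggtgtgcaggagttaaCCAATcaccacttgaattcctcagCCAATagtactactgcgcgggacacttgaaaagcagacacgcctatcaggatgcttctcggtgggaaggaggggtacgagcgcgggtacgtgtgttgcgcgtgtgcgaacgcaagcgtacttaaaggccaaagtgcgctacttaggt
Hist1h4k (chr13:21750554-21750803, minus strand): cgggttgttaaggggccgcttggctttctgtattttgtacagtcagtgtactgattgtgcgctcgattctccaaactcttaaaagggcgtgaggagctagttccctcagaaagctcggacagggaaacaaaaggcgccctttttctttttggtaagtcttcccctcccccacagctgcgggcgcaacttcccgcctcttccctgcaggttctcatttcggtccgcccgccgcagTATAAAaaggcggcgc
In Hist1h1a the TATAAA began 33 bases and the CCAAT 56 bases before the start. In Hist2h2ac they began 42 and 83 bases before it, with further inverted CCAAT copies and an octamer 200 bases before it, on the side of Hist2h2be. Hist1h2bp held 4 CCAAT copies, 2 in each orientation, with an inverted TATAAA 212 bases before its start, on the side of its partner Hist1h2an, and Hist1h3g held 3 CCAAT copies in 1 orientation. The Hist1h4k window held TATAAA alone. These matches describe letters in the windows; binding was not measured, and the absence of a match says nothing about a factor.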

How the data were processed

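RNA-seq of 9 libraries, 1 for each population and arm, was analysed from gene-level files. The authors deposited an estimated count and a TPM for each gene, as the column names show. Per the submitters' processing notes the authors made these with Salmon 0.9.1 on mm10; the transcript annotation release is not given in the sources used here. Gene symbols came from GENCODE M21: 53544 identifiers matched with their version, 563 after it was dropped, and 174 genes stayed unnamed.

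The deposited counts were rounded, filtered (filterByExpr with arm as the group, at least 10 reads, total of at least 15), scaled with TMM and tested with edgeR 4.0.16 (R 4.3.3): an additive quasi-likelihood model of population and arm on all 9 libraries, 4 residual degrees of freedom, Benjamini-Hochberg adjustment over 23834 genes. The residual holds the interaction of population and arm. The standard error is the log2 fold change divided by the square root of F. The scripts were tested on simulated data. Sums and single-library ratios have no test. Alternatives used limma 3.58.1, DESeq2 1.42.0, other scalings and filters, deposited TPM, and left-out libraries, arms or populations.

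Members and gene lists were chosen with earlier results of these data known. Genes named in a comparison were the called members of at least 1 CPM that rose or fell most, up to 5 each way, or those with the 3 smallest p where fewer than 3 were called; for levels, the 2 highest TPM of each type and members above 10 CPM outside Hist1; for other lists, up to 2 called genes each way, with Slbp, Npat and Mki67. The libraries carry no shared replicate numbers.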

Additional observations from a re-analysis of the deposited data

Results flagged for a closer look

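The summed histone level differed in direction between populations when MYC was compared with Her2: the log2 ratio was 0.80 in B and -0.82 in bi for all types. By type it was 0.87 and -0.97 for H2A, 1.01 and -0.69 for H2B, 0.84 and -1.04 for H3, and 0.64 and -0.87 for H4. By cluster it was 0.81 and -0.77 for Hist1, 0.72 and -1.10 for Hist2, and 0.79 and -1.05 for Hist4. Each value is 1 library against 1, a difference was listed where the ratios passed 1.5 times in opposite directions, and the difference between populations was not tested.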

How the results depend on the processing

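No gene named in a comparison changed sign while called in the main fit or in the alternative. No alternative moved the median log2 fold change over the tested histone genes by more than 1 SD of the medians within populations or arms. That is a wide margin where B Her2 stands apart. In MYC against Her2 and in bi against L the ratios of the sums lay on both sides of 1. The sign of their average therefore depends on the libraries kept. The number called lower with MYC against control was 0, and it was 3 with library totals in place of TMM, 45 with DESeq2, 51 with no filter on low counts, 5 with limma on TPM, 48 without population B, and 0 to 50 when single libraries were left out. With Her2 against control it was 0, and 10 with DESeq2, 11 with no filter, 1 without population bi, and 0 to 1 without single libraries. With MYC against Her2 it was 0, and 21 without population B, and 0 to 10 without single libraries. The number called higher in L against B was 53, and 31 with limma on TPM, 2 with no term for the arm, 33 without the Her2 arm, and 17 to 55 without single libraries. In bi against B it was 50, and 32 with limma on TPM, 2 with no term for the arm, 29 without the control arm, and 16 to 56 without single libraries. DESeq2 shared 53 of the 53 and 50 of the 50 calls. The share of all genes called in either direction moved too. Without single libraries it was 0.0249% to 1.98% with MYC, 0% to 0.374% with Her2, and 0.875% to 6.07% in MYC against Her2. In L against B it was 13.4% to 22.3%, and in bi against B 7.6% to 13.7%. Without population B it was 3.45% with MYC and 8.45% in MYC against Her2. With no filter it was 2.38% with MYC and 1.56% with Her2. Limma on TPM gave 3.82% with MYC, 20.8% in L against B and 12.7% in bi against B. With no term for the arm it was 14.1% in L and 6% in bi against B. It was 17.4% in L against B without the Her2 arm and 8.82% in bi against B without the control arm. Leaving out a library leaves fewer samples in a design with 4 residual degrees of freedom, and other causes were not tested. The mean log2 ratio of summed H1 genes with MYC was -0.94 in CPM and -1.20 in TPM. Other scalings moved the median of all genes by at most 0.0403. The additive model already pairs the arms by population and the populations by arm, and the counts of 2 come from the fit without that pairing. Reads divided among near-identical copies limit the values of single members, and depth limits Hist1h1t and Hist1h2ao.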
